A study of Rattus norvegicus with 8 samples.

Results

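The genes described here are 10 regulators of the cell cycle and of the response to cell stress in the rat hippocampus: the kinase inhibitors Cdkn1a, Cdkn1b and Cdkn1c, the kinase-binding protein Cables1, the stress sensors Gadd45a, Gadd45b and Gadd45g, and the D cyclins Ccnd1, Ccnd2 and Ccnd3. They were found by their symbols in the deposited table, where they have 12 of its 16266 transcripts and 10 of its 13272 gene symbols. The table comes from RNAseq of the hippocampi of 8 adrenalectomized (ADX) rats, 1 library per rat, whose adrenal glands had been removed and whose jugular vein had been cannulated. The 4 rats of the Vehicle group were infused with 0.45% saline and the 4 rats of the CORT group with corticosterone-2-hydroxypropyl-β-cyclodextrin at 0.75 mg/mL, both for 30 min at zeitgeber time (ZT) 2. Tissue was taken 2 h after the infusion began, which is ZT 4 in the methods, while the sample labels carry the ZT 2 of the infusion. The labels give Sprague-Dawley rats aged 3 to 4 months, whereas the methods name adult male Lister hooded rats and give a younger age range. All rats had drunk a corticosterone solution after surgery, which was replaced with saline before the experiment. The Vehicle rats thus had no adrenal glands and are no model of an intact animal. The labels call the Vehicle samples untreated in their titles.

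Levels are given as FPKM, the fragments of a transcript scaled to its length and to the size of the library, which allows the levels of genes to be set side by side. The table used here holds 1 FPKM value per transcript and group, estimated by the authors over 4 rats. A spread between rats, a depth per library and a test could therefore not be computed from the FPKM values. The statistics of the authors' own comparison were not used, and each comparison below describes 2 group values. Differences are given as the log2 ratio of the CORT over the Vehicle FPKM without a pseudocount, and a difference of at least 1.5-fold in either direction was counted. Because whole tissue was sequenced, fewer cells of a type and less RNA per cell cannot be told apart.

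Progress through the cell cycle is driven by cyclins bound to cyclin-dependent kinases. D cyclins with Cdk4 or Cdk6 act in early G1 and phosphorylate Rb, which then releases E2F transcription factors. The Cip/Kip proteins p21 (Cdkn1a), p27 (Cdkn1b) and p57 (Cdkn1c) bind cyclin-kinase complexes and hold cells out of division. Gadd45 proteins are small inducible proteins that bind kinases of the p38 and JNK pathways as well as Pcna and Cdk1, and in neurons they have been linked to active DNA demethylation. In the adult hippocampus most neurons no longer divide, and dividing cells are found chiefly in the dentate gyrus, in glial precursors and in vessels. Glucocorticoids are known to halt division in many cell types, and Cdkn1a is among their known targets.

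Of the 12 transcripts, 3 were at least 1.5-fold higher in the CORT group and 2 at least 1.5-fold lower, and the other 7 were within 1.5-fold. Both transcripts of Cdkn1a and the transcript of Cables1 were the higher ones, and Ccnd1 and the main transcript of Cdkn1c were the lower ones. Among all transcripts, 4.21% were at least 1.5-fold higher and 4.91% at least 1.5-fold lower in the CORT group. The members lay between 2.44 and 28.1 FPKM as a mean of the 2 groups, and of the 9511 transcripts in that range 2.43% were higher and 2.72% lower by this fold. Ratios scatter more at low FPKM, so the second pair of shares is the closer background. The genes were not picked blind to these data, and the counts describe them without a test.

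**Figure D1:**
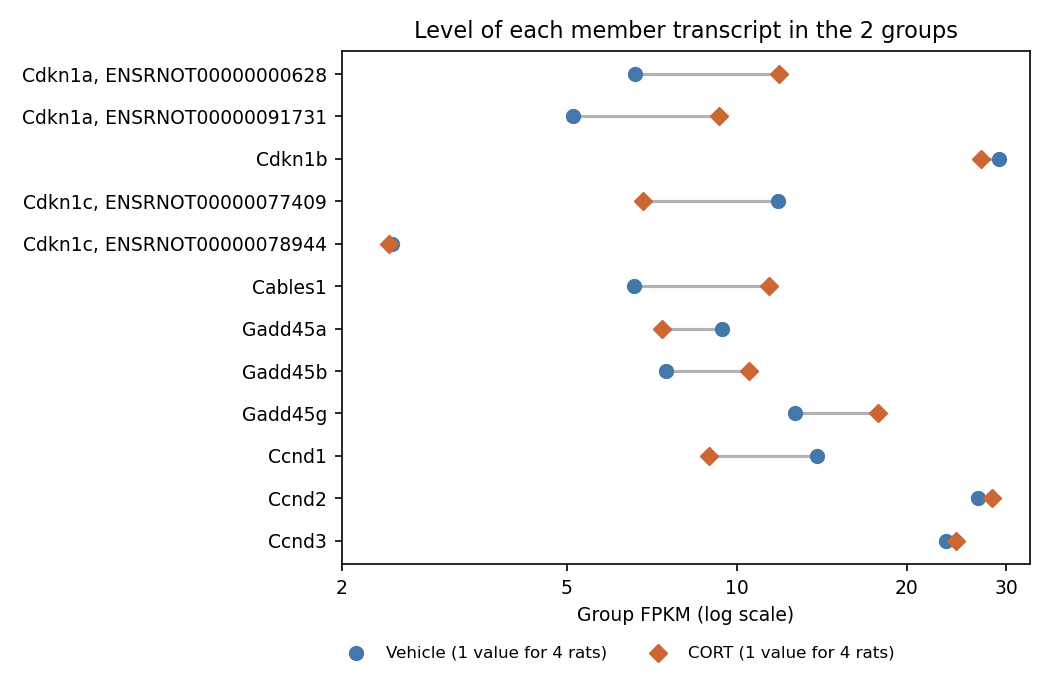
Group FPKM (log axis) of the 12 transcripts of the 10 genes, with a circle for Vehicle and a diamond for CORT, each 1 value for 4 rats and therefore without an error bar. Cdkn1a, Cables1, Gadd45b and Gadd45g lie further right with CORT, Ccnd1, Gadd45a and the main Cdkn1c transcript lie further left, and Cdkn1b, Ccnd2 and Ccnd3 have nearly the same level in both groups.

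Cdkn1a encodes p21, an inhibitor that cell stress and several hormone receptors induce. The gene lies on chromosome 20 of rn6, at the locus the table gives as 6351457 to 6358864, with 2 transcripts there. ENSRNOT00000000628.4 was at 6.61 FPKM in the Vehicle group and at 11.9 FPKM in the CORT group. ENSRNOT00000091731.1 was at 5.13 FPKM in Vehicle rats and 9.30 FPKM in CORT rats. Both were higher with CORT by nearly the same factor, 1.80-fold (log2 ratio 0.85) and 1.81-fold (log2 ratio 0.86). The first transcript held 56.3% of the gene's summed FPKM with Vehicle and 56.1% with CORT, so the make-up of the gene's transcripts was nearly the same in both groups. Transcripts of a gene share reads that Cufflinks divides between them, so the sum is the more secure value. The sum for Cdkn1a was 11.7 FPKM in Vehicle rats and 21.2 FPKM in CORT rats, a log2 ratio of 0.85. A ratio as high as that of the first transcript was found for 2.45% of all transcripts and for 1.14% of those in the members' range of FPKM.

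Cables1 encodes a protein that links Cdk5, and other cyclin-dependent kinases, to the Abl tyrosine kinases and is counted among the inhibitors of cell division. It lies on chromosome 18 of rn6, between 3317723 and 3421721, with 1 transcript in the table. Cables1 was at 6.59 FPKM in Vehicle rats and 11.4 FPKM in CORT rats, 1.73-fold higher with CORT (log2 ratio 0.79). This was the lowest level of the 10 genes in the Vehicle group, with transcripts summed, and ranked 6 in the CORT group. Cables2, its closest relative, was at 10.6 FPKM in Vehicle rats and 11.4 FPKM in CORT rats, a log2 ratio of 0.11. Of the 7 listed partners of Cables1 and Cdk5, all of which had a transcript, none differed by 1.5-fold and 6 had a ratio above 0. The highest log2 ratios among them were 0.38 for Cdk5r1, which encodes the Cdk5 activator p35, and 0.35 for Abl2, and that of Cdk5 itself was 0.12.

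The start regions of the genes that were higher with CORT are shown because these 4 members were each at least 1.40-fold higher, and the glucocorticoid receptor binds DNA. RefSeq windows from 250 bases before to 50 bases after the start site (GRCr8) were matched by symbol for 7 of the 10 genes, all but Cdkn1c, Ccnd1 and Ccnd2. Those of Cdkn1a, Cables1, Gadd45b and Gadd45g follow 5′ to 3′ on the gene's strand. They lie at chr20:7150682-7150981 on the plus strand, chr18:3351402-3351701 on the plus strand, chr7:9430669-9430968 on the minus strand and chr17:13530302-13530601 on the minus strand. Capitals mark the TATA box letters TATAAA and the GC box letters GGGCGG on either strand.
Cdkn1a: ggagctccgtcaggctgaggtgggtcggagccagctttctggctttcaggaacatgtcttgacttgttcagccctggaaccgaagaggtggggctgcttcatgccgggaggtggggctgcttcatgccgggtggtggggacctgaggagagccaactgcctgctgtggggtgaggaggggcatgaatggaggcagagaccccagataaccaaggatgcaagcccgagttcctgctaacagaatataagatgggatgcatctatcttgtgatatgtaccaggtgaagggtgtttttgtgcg
Cables1: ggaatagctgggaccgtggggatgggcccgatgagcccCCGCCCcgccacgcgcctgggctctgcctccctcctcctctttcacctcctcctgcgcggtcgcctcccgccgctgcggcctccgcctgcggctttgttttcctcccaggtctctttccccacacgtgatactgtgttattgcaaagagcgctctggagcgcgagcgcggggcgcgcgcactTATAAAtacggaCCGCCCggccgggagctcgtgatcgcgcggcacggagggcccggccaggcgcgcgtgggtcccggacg
Gadd45b: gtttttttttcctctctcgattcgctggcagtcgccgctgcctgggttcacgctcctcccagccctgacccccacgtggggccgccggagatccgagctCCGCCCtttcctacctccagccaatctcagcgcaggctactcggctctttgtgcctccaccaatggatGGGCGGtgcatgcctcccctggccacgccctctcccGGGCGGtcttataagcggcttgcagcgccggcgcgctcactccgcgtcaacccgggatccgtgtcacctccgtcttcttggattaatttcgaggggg
Gadd45g: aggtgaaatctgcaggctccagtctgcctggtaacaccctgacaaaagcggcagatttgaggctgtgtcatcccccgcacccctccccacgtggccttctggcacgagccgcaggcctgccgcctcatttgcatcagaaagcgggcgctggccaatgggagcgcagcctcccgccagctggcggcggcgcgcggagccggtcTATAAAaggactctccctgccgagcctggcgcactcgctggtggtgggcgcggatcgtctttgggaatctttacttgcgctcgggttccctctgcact

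The core of the glucocorticoid response element, ACANNNTGT, which reads the same on both strands, was in none of the 7 windows, against 6.86% of all 33469 windows. The cAMP response element, TGACGTCA, was in none of the 7 either, against 1.83% of all windows. These letters are not in these windows, which says nothing of sites elsewhere in the genes. The TATA box letters were in 2 of the 7 windows, those of Cables1 and Gadd45g, against 14.2% of all windows. The GC box letters were in 5 of the 7, against 33.1%, and the Gadd45b window holds them 3 times. The windows of Cdkn1a and Cables1 differ in base composition, with 7 CG dinucleotides for Cdkn1a and 38 for Cables1, while the median of all windows is 7. The Gadd45b window has 27 and the Gadd45g window 24. A match is a description of the letters and not of a bound site.

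Cdkn1b, which encodes p27, had the highest level of the 10 genes in the Vehicle group. It lies on chromosome 4 of rn6, between 168689162 and 168693964. Its FPKM was 29.2 with Vehicle and 27.1 with CORT, a log2 ratio of -0.11, and 25.7% of all transcripts had a ratio as low. Its level in the 2 groups thus differed little beside that of either relative.

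Cdkn1c encodes p57, an imprinted inhibitor expressed in quiescent stem cells and in several vascular and supporting tissues. Its 2 transcripts share 1 locus on chromosome 1 of rn6, between 216661079 and 216663721. ENSRNOT00000077409.1 was at 11.9 FPKM in Vehicle rats and 6.83 FPKM in CORT rats, 1.74-fold lower with CORT (log2 ratio -0.80). ENSRNOT00000078944.1 was at 2.45 FPKM in Vehicle rats and 2.42 FPKM in CORT rats, a log2 ratio of -0.02. By these estimates the main transcript held 82.8% of the gene's FPKM with Vehicle and 73.8% with CORT, but the division of reads between these overlapping transcripts is uncertain. With both summed, Cdkn1c was at 14.3 FPKM in Vehicle rats and 9.25 FPKM in CORT rats, a log2 ratio of -0.63 that is still past 1.5-fold.

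Within the Cip/Kip family, the inhibitors thus went in different directions between the group values. Their summed FPKM was 55.2 with Vehicle and 57.5 with CORT, a log2 ratio of 0.06, so the opposite differences of Cdkn1a and Cdkn1c hardly showed in the family total. Cdkn1a made up 21.3% of the family's FPKM with Vehicle and 36.8% with CORT. Cdkn1c made up 25.9% with Vehicle and 16.1% with CORT. Cdkn1b was the largest part of the family in both groups, with 52.8% and 47.1%.

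**Figure D2:**
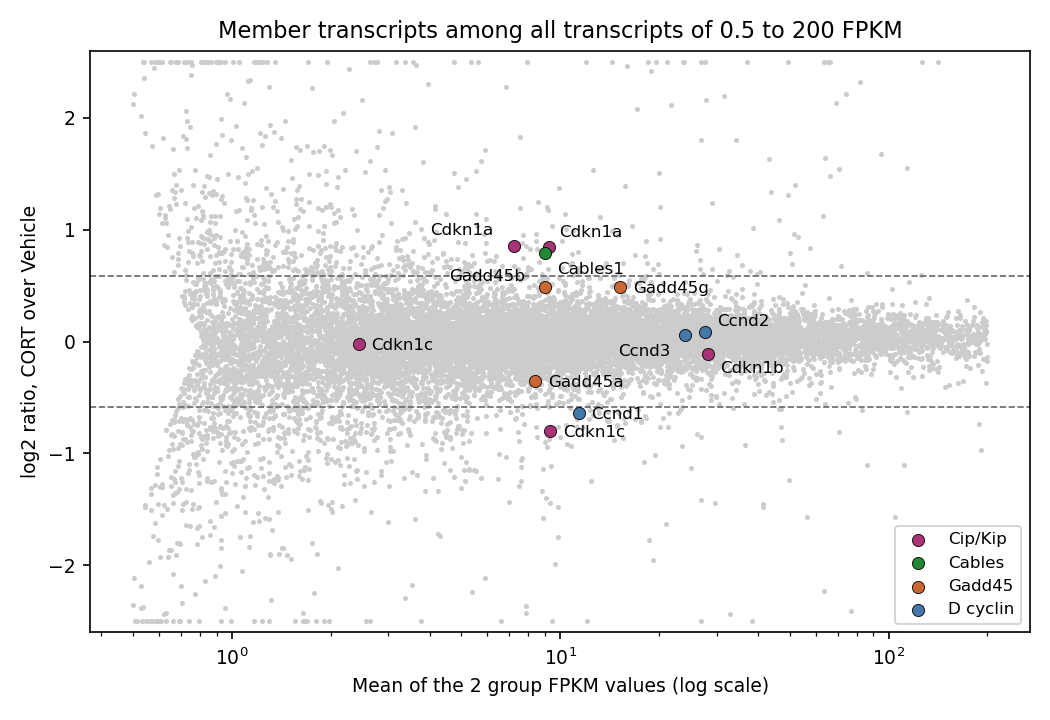
Log2 ratio of the CORT over the Vehicle FPKM against the mean of the group values (log axis) for all transcripts of 0.5 to 200 FPKM in grey, with the 12 member transcripts coloured by family, dashed lines at 1.5-fold, and the 101 ratios beyond 2.5 in size drawn at the edge. Both Cdkn1a transcripts and Cables1 lie above the upper line at 7 to 9 FPKM, the main Cdkn1c transcript and Ccnd1 lie below the lower line, and the second Cdkn1c transcript lies near 0.

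The Gadd45 genes also differed from each other in direction. Gadd45b, on chromosome 7 of rn6 between 11646268 and 11648322, is an immediate early gene of stimulated neurons. It was at 7.51 FPKM in Vehicle rats and 10.5 FPKM in CORT rats. Gadd45g, on chromosome 17 between 13391466 and 13393243, was at 12.7 FPKM in Vehicle rats and 17.8 FPKM in CORT rats. Both were 1.40-fold higher with CORT (log2 ratio 0.49), just short of the fold counted, and 3.46% and 3.47% of the transcripts in the members' range of FPKM had ratios as high. Gadd45a, a member induced by DNA damage, lies on chromosome 4 between 97782511 and 97784842. It was at 9.42 FPKM in Vehicle rats and 7.39 FPKM in CORT rats, a log2 ratio of -0.35, and 6.99% of the transcripts in that range had a ratio as low. The family's summed FPKM was 29.6 with Vehicle and 35.7 with CORT, and the share of Gadd45a in it was 31.8% with Vehicle and 20.7% with CORT. Gadd45g was the most abundant member in both groups, with 42.9% and 49.8%.

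Of the 10 listed kinases with a transcript through which Gadd45 proteins act (12 listed), none differed by 1.5-fold. Map3k4, which Gadd45 proteins bind and activate, was at 6.32 FPKM in Vehicle rats and 6.58 FPKM in CORT rats. The largest log2 ratios in this list were 0.18 for Mapk8, which encodes JNK1, and -0.27 for Mapk12, a p38 kinase. In the list of DNA methylation and demethylation genes, 1 of 10 with a transcript (13 listed) was at least 1.5-fold lower and none was higher. That gene was Apobec1, a cytidine deaminase, at 2.16 FPKM in Vehicle rats and 1.03 FPKM in CORT rats. Tet2 and Tet3, which oxidise methylcytosine, had log2 ratios of 0.08 and 0.15, and Uhrf1, which brings the maintenance methyltransferase to replicating DNA, one of -0.52.

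Among the D cyclins, Ccnd1 differed and its relatives hardly did. Ccnd1 lies on chromosome 1 of rn6, between 218090749 and 218100325, and was at 13.9 FPKM in Vehicle rats and 8.92 FPKM in CORT rats. That is 1.55-fold lower with CORT (log2 ratio -0.64), and 2.30% of the transcripts in the members' range of FPKM had a ratio as low. With a pseudocount of 1 FPKM the log2 ratio of Ccnd1 was -0.58, just within 1.5-fold. Ccnd2, the D cyclin of neural precursors, lies on chromosome 4 between 159674884 and 159697207, and was at 26.7 FPKM in Vehicle rats and 28.3 FPKM in CORT rats. Ccnd3, on chromosome 9 between 15404821 and 15410943, was at 23.5 FPKM in Vehicle rats and 24.5 FPKM in CORT rats. Their log2 ratios were 0.09 and 0.06. The family total was 64.1 FPKM in Vehicle rats and 61.7 FPKM in CORT rats, of which Ccnd1 made up 21.6% with Vehicle and 14.5% with CORT.

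With the transcripts of each gene summed, the order of the levels in the Vehicle group was Cdkn1b, Ccnd2, Ccnd3, Cdkn1c, Ccnd1, Gadd45g, Cdkn1a, Gadd45a, Gadd45b and Cables1. In the CORT group it was Ccnd2, Cdkn1b, Ccnd3, Cdkn1a, Gadd45g, Cables1, Gadd45b, Cdkn1c, Ccnd1 and Gadd45a. Cdkn1a thus stood at rank 7 with Vehicle and rank 4 with CORT, and Ccnd1 at ranks 5 and 9. Without a spread between rats, neighbours in these orders cannot be called different. The genes at the top, Cdkn1b, Ccnd2 and Ccnd3, were those with the log2 ratios nearest to 0.

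The other genes of the cell cycle were described from lists, where the most abundant transcript stood for each gene. Over all 13272 symbols, the median log2 ratio was 0.02, with 1.92% at least 1.5-fold higher and 3.99% at least 1.5-fold lower in the CORT group. Of the 10 genes described here, 2 were higher and 2 lower on this scale. Of the 5 genes with a transcript in the list of other kinase inhibitors (8 listed), 2 were lower and none was higher. This list also held Cables2 and the binding proteins Cdkn2aip and Gadd45gip1, with log2 ratios of 0.11, 0.13 and 0.02. Cdkn2c, which encodes the Cdk4 and Cdk6 inhibitor p18, had a log2 ratio of -0.78, from 2.15 FPKM in Vehicle rats. Cdkn3, a phosphatase of cyclin-dependent kinases that is expressed in dividing cells, was at 1.86 FPKM in Vehicle rats and 0.709 FPKM in CORT rats. These levels are far below those of the Cip/Kip genes.

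Of the cyclin-dependent kinases, 1 of 4 with a transcript was at least 1.5-fold lower and none was higher. That was Cdk1, the kinase of mitosis, at 2.93 FPKM in Vehicle rats and 0.616 FPKM in CORT rats, a log2 ratio of -2.25. Cdk4, the partner of the D cyclins, was at 59.7 FPKM in Vehicle rats and 50.3 FPKM in CORT rats, a log2 ratio of -0.25. Of the 9 other cyclins with a transcript, 2 were at least 1.5-fold lower, Ccna2 with a log2 ratio of -1.31 and Ccnb1 with -1.03, and none was higher. Both were low, Ccna2 at 1.32 FPKM in Vehicle rats and 0.531 FPKM in CORT rats, and Ccnb1 at 2.26 and 1.11 FPKM. Ccna2 reached 1 FPKM only in the Vehicle group. None of the 10 Rb and E2F genes with a transcript differed by 1.5-fold. Rb1 was at 8.45 FPKM in Vehicle rats and 8.46 FPKM in CORT rats, while E2f2 and E2f3 had log2 ratios of -0.57 and -0.52.

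Of the 17 proliferation markers with a transcript (20 listed), 8 were at least 1.5-fold lower in the CORT group, none was higher, and 15 had a ratio below 0. Among the lower ones, Mki67, Top2a, Mcm3, Mcm5, Cdc20 and Ube2c reached 1 FPKM only in the Vehicle group. Their median log2 ratio was -0.57, beside 0.02 over all symbols, of which 3.99% were at least 1.5-fold lower. All of these markers but Pcna were below the median Vehicle level of all symbols, 11.4 FPKM. Ratios scatter more at low FPKM, and no background at the level of these markers was taken. Ube2c, a ubiquitin-conjugating enzyme of mitosis, was at 2.22 FPKM in Vehicle rats and 0.617 FPKM in CORT rats. Top2a, a topoisomerase of dividing cells, was at 1.75 FPKM in Vehicle rats and 0.572 FPKM in CORT rats. Mcm5, a subunit of the replicative helicase, had a log2 ratio of -1.30, whereas Mcm4, of the same complex, had one of 0.01. Most of these markers were low, and Pcna, by far the most abundant, was at 45.1 FPKM in Vehicle rats and 36.6 FPKM in CORT rats. Without Pcna, the list summed to 50.6 FPKM in Vehicle rats and 34.1 FPKM in CORT rats.

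**Figure D3:**
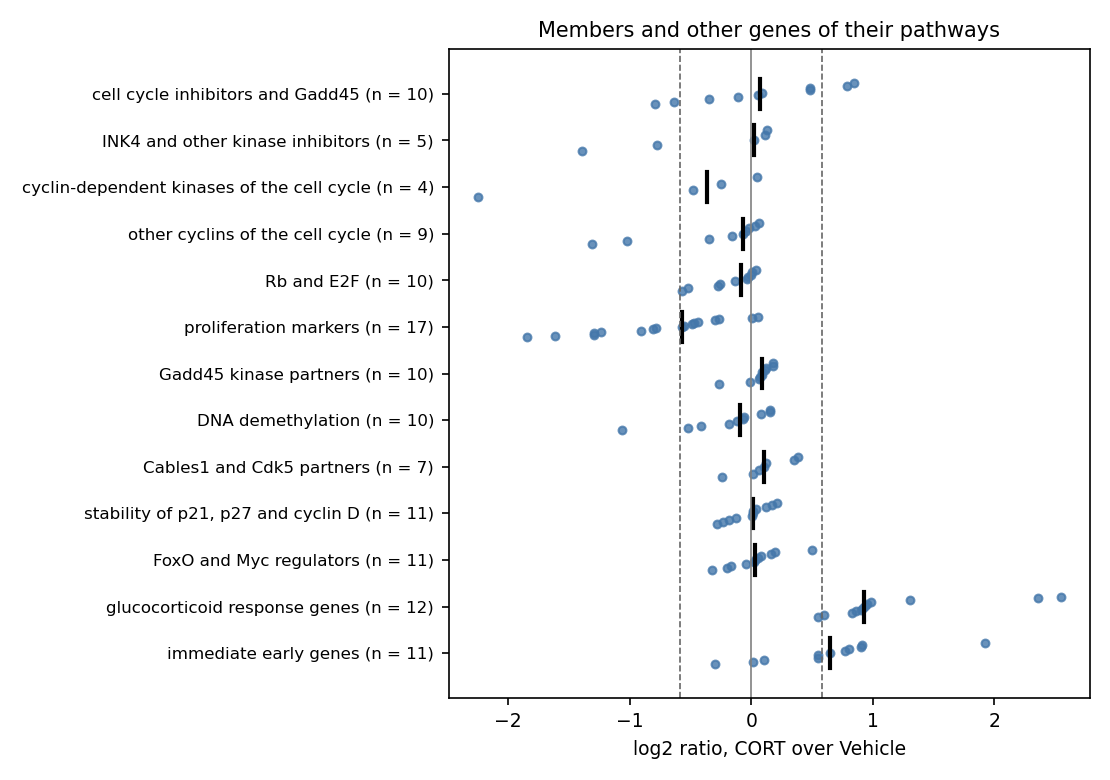
Log2 ratio of the CORT over the Vehicle FPKM for each gene (points) of the 10 genes described here and of 12 pathway lists, with a black bar at the median of each list and dashed lines at 1.5-fold. The proliferation markers lie mostly to the left with a median of -0.57, and the glucocorticoid response genes lie to the right with a median of 0.93.

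FoxO factors can induce Cdkn1a, Cdkn1b and Gadd45 genes, and Myc can repress the inhibitors. None of the 11 FoxO and Myc genes differed by 1.5-fold, and the highest log2 ratio was that of Foxo3, 0.50, at 4.52 FPKM in Vehicle rats and 6.38 FPKM in CORT rats. Myc was at 3.24 FPKM in Vehicle rats and 3.15 FPKM in CORT rats. None of the 11 genes with a transcript for the turnover of p21, p27 and the D cyclins differed by 1.5-fold either. Skp2, the F-box protein that marks p27 for degradation, was at 2.88 FPKM in Vehicle rats and 2.46 FPKM in CORT rats.

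Genes that corticosterone is known to induce were used to check the labels. Without Cdkn1a, 11 of the 12 were at least 1.5-fold higher in the CORT group, with a median log2 ratio of 0.93. Fkbp5, a co-chaperone of the glucocorticoid receptor, was at 18.6 FPKM in Vehicle rats and 33.8 FPKM in CORT rats. Per1, Sgk1 and Tsc22d3 had log2 ratios of 0.95, 1.31 and 0.93. The other gene, Dusp1, a phosphatase of MAP kinases, had a log2 ratio of 0.55. The log2 ratios of the list ran from 0.55 for Dusp1 and 0.60 for Klf9 to 2.54 for Pdk4, and those of Cdkn1a (0.85) and Cables1 (0.79) were below its median. This list was chosen with results of these samples known and is not independent evidence. Of the 11 immediate early genes with a transcript (12 listed), 6 were at least 1.5-fold higher and none was lower, with a median log2 ratio of 0.65. Their log2 ratios ran from -0.30 for Npas4, with 0.02 for Jun and 0.10 for Btg2, to 0.91 for Fos and 1.92 for Egr2. Both ends of this range were low. Npas4 was at 1.06 FPKM in Vehicle rats and 0.865 FPKM in CORT rats. Egr2, at 0.312 and 1.18 FPKM, reached 1 FPKM only in the CORT group.

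The tissue label was checked with markers of the cell types that a dissected hippocampus can hold. Slc17a7 and Camk2a, of excitatory neurons, were at 736 and 593 FPKM with Vehicle and at 794 and 667 FPKM with CORT, and Prox1, of dentate granule cells, was at 10.9 and 8.96 FPKM. Of the 10 neuronal markers with a transcript, 9 were within 1.5-fold and Zbtb20 was higher. Zbtb20 had the lowest level of this list, 1.55 FPKM in Vehicle rats and 2.72 FPKM in CORT rats. Markers of adult neurogenesis were mostly within 1.5-fold, with Dcx at 4.98 FPKM in Vehicle rats and 4.84 FPKM in CORT rats. Of the 10 with a transcript, Sox2, at 26.8 FPKM in Vehicle rats and 15.8 FPKM in CORT rats, was lower, and Neurog2, near 1 FPKM, was higher.

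Lists of meningeal, blood and vessel markers had medians below 0, the direction in which Ccnd1, the main Cdkn1c transcript and 8 of the 17 proliferation markers differed. This direction was not particular to them. The medians of the oligodendrocyte, microglia, astrocyte, neurogenesis and choroid plexus lists were also below 0, from -0.21 to -0.02. Of the 9 meningeal fibroblast markers with a transcript (10 listed), 5 were at least 1.5-fold lower in the CORT group and the median log2 ratio was -1.14. Their summed level was 1680 FPKM in Vehicle rats and 796 FPKM in CORT rats. Most of it was Ptgds, which was at 1554 FPKM and 705 FPKM. Without Ptgds the sums were 126 and 90.4 FPKM. Col3a1, a fibrillar collagen, was at 10.7 FPKM in Vehicle rats and 4.35 FPKM in CORT rats. The list was not uniform, with 8 ratios below 0 and 1 above. Dcn, a proteoglycan of fibroblasts, was at 18.8 FPKM in Vehicle rats and 20.04 FPKM in CORT rats (log2 ratio 0.09), and Igf2, a growth factor and the next most abundant of the list after Ptgds, had a log2 ratio of -0.35. Of the 6 blood cell markers with a transcript (7 listed), 5 were at least 1.5-fold lower, and their sum was 1426 FPKM in Vehicle rats and 817 FPKM in CORT rats, with Hba1, an alpha globin, the most abundant at 583 and 347 FPKM. Of the 10 endothelial and mural markers with a transcript (11 listed), 3 were at least 1.5-fold lower and 7 were within 1.5-fold, with a median log2 ratio of -0.47. Their sum was 142 FPKM in Vehicle rats and 118 FPKM in CORT rats, and the most abundant, Cldn5 of endothelial tight junctions, was at 50.8 and 45.6 FPKM. The part of these tissues in the values of Ccnd1, Cdkn1c and the proliferation markers was not tested.

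Markers of glia and choroid plexus differed less by their medians. By summed FPKM, the oligodendrocyte and astrocyte lists had log2 ratios of -0.26 and -0.20, and the endothelial and mural list one of -0.27. Gfap had the largest fall in FPKM of the astrocyte list, where 5 ratios were below 0 and 3 above. Those above 0 were Slc1a2 (0.14), Aldoc (0.15) and S100b (0.04). The astrocyte sum thus does not describe the list as a whole. The sums of the microglia and choroid plexus lists had log2 ratios of -0.13 and -0.01. The median log2 ratio was -0.21 for the 12 oligodendrocyte lineage markers, of which none differed by 1.5-fold, and -0.09 for the 8 astrocyte markers, of which Gfap and Aldh1l1 were lower. Gfap, an intermediate filament of astrocytes, was at 970 FPKM in Vehicle rats and 517 FPKM in CORT rats. The 10 microglia markers had a median of -0.20, with Tmem119 higher by at least 1.5-fold. The 9 choroid plexus markers with a transcript had a median of -0.02, and Ttr was at 6605 FPKM in Vehicle rats and 6598 FPKM in CORT rats. The choroid plexus markers thus had nearly the same summed level in both groups, 6949 and 6918 FPKM, most of it Ttr. Without Ttr the sums were 344 FPKM in Vehicle rats and 321 FPKM in CORT rats. Every transcript had a value above 0 in both groups, so a marker value above 0 does not by itself show that a cell type was present. Listed markers without a transcript, such as Pecam1, Col1a2 and Nes, were left out.

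**Figure D4:**
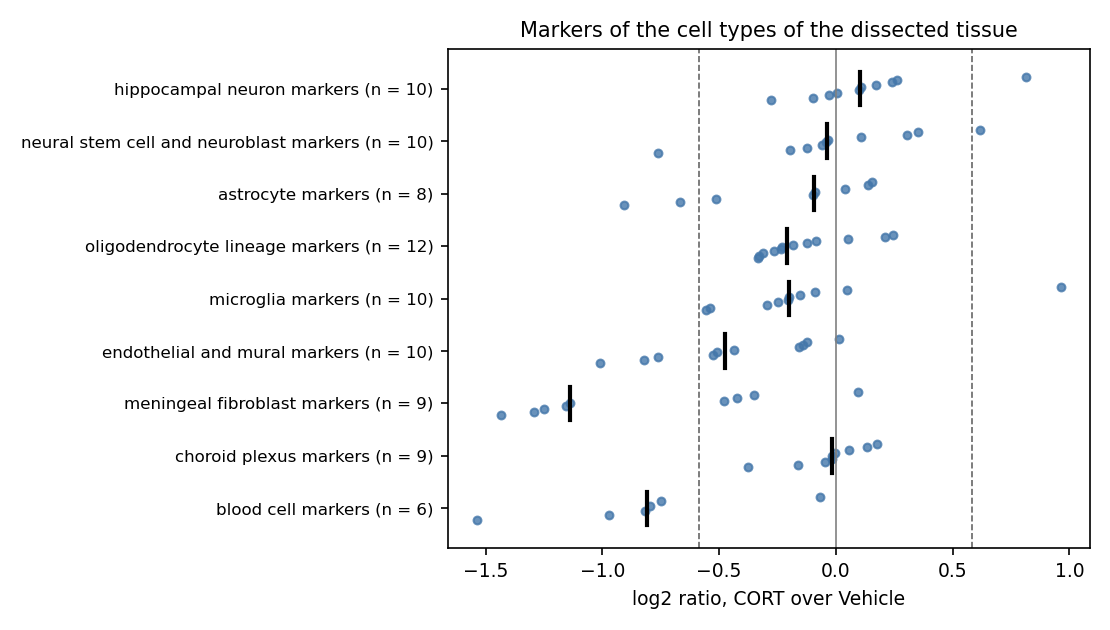
Log2 ratio of the CORT over the Vehicle FPKM for each marker gene (points) in 9 lists of cell type markers, with a black bar at the median of each list and dashed lines at 1.5-fold. Meningeal fibroblast and blood cell markers lie to the left, with medians of -1.14 and -0.81, while neuronal and choroid plexus markers have medians of 0.10 and -0.02.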

How the data were processed

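RNAseq of whole hippocampi from 4 Vehicle and 4 CORT rats was analysed from 1 table. The authors aligned stranded total RNA libraries to rn6 with TopHat2 2.0.10 and estimated transcript levels with Cufflinks and Cuffdiff 2.2.0, with geometric normalization between libraries, a minimum alignment count and corrections for multi-mapped reads, bias and effective length. The authors deposited 1 FPKM value per transcript and group, with no sample-specific columns, so depth and precision per rat are unknown here. The table also holds the log2 fold change, test statistic, p-value and q-value of the authors' own comparison, none of which was used.

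The CORT over Vehicle ratio was computed from the FPKM values without a pseudocount. All values were above 0 and no row was left out. No statistical test between the groups was run. Results on some further genes are not reported here. Lists used the transcript with the highest mean FPKM of each exact symbol. The rule for named genes took the 10 genes and, in each list, up to 3 symbols with the highest and up to 3 with the lowest ratios among those at 1 FPKM or more in a group, with Per1, Sgk1, Fkbp5 and Tsc22d3 to check the labels and the most abundant gene of each marker list. Pcna, Myc, Camk2a, Slc17a7 and Dcx fall outside it and were chosen after their values were seen. The genes and lists were chosen with earlier results of these data known. The TATA and GC box searches and the background in the members' FPKM range were chosen after seeing the data. The calculation of ratios and counts was checked on a simulated table with known folds. Leaving out rats was not possible. Pseudocounts, other folds, a filter at 1 FPKM, summing over transcripts and centring were tried as alternatives. Python 3.11.15, numpy 2.4.6, pandas 2.3.3 and matplotlib 3.10.9 were used. Promoter windows came from RefSeq (GRCr8), and coordinates of genes from the table (rn6).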

Additional observations from a re-analysis of the deposited data

How the results depend on the processing

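The ratios of the 12 transcripts kept their direction under pseudocounts of 0.1 and 1 FPKM, centring on the median of 0.02, and summing over a gene's transcripts, and 3 of these values moved by over 0.1, a set tolerance that does not measure a spread between rats. With a pseudocount of 1 FPKM the second Cdkn1a transcript went to 0.75, and with transcripts summed both Cdkn1c transcripts are represented by -0.63. At a smaller limit of 0.32 on the log2 scale, 5 member transcripts were higher and 3 lower, against 1551 and 1757 of all transcripts. At 2-fold, 0 members were higher and 0 lower, against 312 and 331. With a pseudocount of 1 FPKM, 3 members were higher and 1 lower (Ccnd1 was then within 1.5-fold), against 366 and 383 of all transcripts. With FPKM summed over transcripts, 2 member genes were higher and 2 lower, against 235 and 498 of all symbols. Filtering at 1 FPKM kept the counts of members. Of the list medians, 3 moved with a pseudocount of 1 FPKM: proliferation markers to -0.42, immediate early genes to 0.52 and meningeal fibroblast markers to -0.96. The other list medians moved by less than 0.1 with this pseudocount, a filter at 1 FPKM and summing, and the causes were not tested.

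Leaving out each rat in turn was not run, since the FPKM values are group values. No spread is given, since the statistics of the authors' own comparison were not used. No paired analysis was possible because the table gives a single level for each group. The depth behind low FPKM values is unknown, and a difference between groups at 1 to 3 FPKM cannot be weighed against counting error.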
